A study of Mus musculus with 2 samples.

Results

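Mir320, Mir484 and Mir877 are miRNA genes known to give mature miRNAs without the nuclear enzyme Drosha, and they were chosen by that property. They are 3 of the 2202 miRNA genes listed in the deposited tables, found by matching the Ensembl gene identifiers to GENCODE M21 symbols. The tables hold small-RNA sequencing of heart tissue from male B6CASTF1/J mice aged 25 days, F1 hybrids between C57BL/6J, the common laboratory strain, and CAST, a strain bred from wild mice. There are 2 libraries, labelled biological replicates 1 and 2, which form 1 group with no treatment or control. The animals carry separate numbers but the same donor identifier, so the spread between libraries may be technical. The sample descriptions give the age with months as the unit, while the age and source labels give 25 days. Reads were counted against mm10, the C57BL/6J sequence, so those from CAST alleles were matched to the other parent's genome.

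Most miRNAs are cut in the nucleus and again in the cytoplasm. Drosha, with its partner Dgcr8, crops a hairpin out of a long nuclear transcript, and Dicer then cuts off the loop in the cytoplasm. Mir320 and Mir484 belong to a small class in which transcription starts at the hairpin itself, so that the precursor carries the cap of RNA polymerase II and leaves the nucleus through exportin 1. Mir877 is a mirtron, a very short intron that splicing releases and that folds, once opened from its lariat, into a hairpin ready for Dicer. In heart muscle cells, miR-320 has been reported to repress the small heat shock protein Hsp20 and miR-484 to repress Fis1, a protein of mitochondrial fission. All of this is background, and neither precursors nor targets were measured here.

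RefSeq (GRCm38.p6) sequences were matched for 2 of the 3 members, Mir484 and Mir877, and the annotated mature arms are shown because their seeds set each miRNA apart. No read sequences were examined. Capitals mark the seed, bases 2 to 8, which pairs with target mRNAs.
mmu-miR-484: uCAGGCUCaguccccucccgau
mmu-miR-877-5p: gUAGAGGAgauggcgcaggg
mmu-miR-877-3p: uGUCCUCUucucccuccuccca
None of these seeds was shared with another of the 1679 mature names in that table, which is not complete. The single annotated arm of Mir484 lies at chr16:14159630-14159651 on the plus strand, and the arms of Mir877 lie on the minus strand at chr17:35960795-35960814 (5p) and chr17:35960731-35960752 (3p). The deposited counts are per gene, so reads of the 5p and 3p arms of Mir877 cannot be told apart.

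The hairpins are shown to set the mirtrons, whose ends are splice sites, beside Mir484, whose ends are not. In Mir484 the capitals mark the mature arm, which begins at hairpin base 5 of 67. In Mir877, and in the mirtrons Mir1981, Mir1982 and Mir1224 below it, capitals mark the first and last pair of bases, which are the splice sites GU and AG of an intron.
Mir484: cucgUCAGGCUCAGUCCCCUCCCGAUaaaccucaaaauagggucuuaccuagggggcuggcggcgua
Mir877: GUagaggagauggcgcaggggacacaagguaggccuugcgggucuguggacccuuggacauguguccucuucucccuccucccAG
Mir1981: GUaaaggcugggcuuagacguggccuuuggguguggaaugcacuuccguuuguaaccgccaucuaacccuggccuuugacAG
Mir1982: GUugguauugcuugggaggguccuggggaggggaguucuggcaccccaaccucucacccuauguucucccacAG
Mir1224: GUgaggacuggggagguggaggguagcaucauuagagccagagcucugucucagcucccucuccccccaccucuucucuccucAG
The miR-877-5p arm starts at hairpin base 1, and so do the 5p arms of Mir1981 and Mir1224, while that of Mir1982 starts at base 12. The miR-877-3p arm ends 1 base before the end of its hairpin. Of the 1005 hairpins listed by RefSeq there, 2.99% begin with GU and end with AG, and 14.6% have an annotated arm at base 1. Of the 305 hairpins of detected genes, 7 begin with GU and end with AG, 13 have an arm at base 1 and 4 have both.

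The arms of the mirtrons are uneven in base composition. The miR-877-3p arm is 90.9% pyrimidine, higher than 99.8% of the 573 mature names of detected genes, and the miR-877-5p arm is 20.0% pyrimidine, higher than 0.698% of them. The 3p arm of Mir1224 is 85.7% pyrimidine and its 5p arm 19.0%, and those of Mir1981 are less uneven, at 66.7% and 37.5%. The miR-484 arm is 68.2% pyrimidine and 63.6% G or C, above 87.3% and 83.9% of the same names, whose medians are 52.2% pyrimidine and 50.0% G or C. Folded with RNAfold, the Mir877 hairpin had a minimum free energy of -0.429 kcal/mol per base and the Mir484 hairpin -0.367, against a median of -0.438 over the 305 hairpins of detected genes. The annotated hairpins do not mark where an enzyme cuts, so these energies describe the printed letters only.

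Each hairpin has a different setting in the genome (mm10, GENCODE M21). Mir320 (chr14:70443510-70443591, plus strand, 82 bases) lies outside any annotated gene on its strand and begins 63 bases from the start of Polr3d, a subunit of RNA polymerase III that is transcribed in the opposite direction. Mir484 (chr16:14159626-14159692, plus strand, 67 bases) begins upstream of Nde1, a dynein regulator on the same strand whose start lies 3583 bases beyond its 3' end. The 3' end of Mir484 overlaps an exon of Marf1 on the opposite strand. Mir877 (chr17:35960730-35960814, minus strand, 85 bases) is the whole of intron 12 of the 22 introns of the Abcf1 transcript that spans it, to the base at both ends. Abcf1 encodes a protein of translation initiation. The nearest other miRNA genes are 143503, 30995 and 42761 bases from Mir320, Mir484 and Mir877, so none lies in a miRNA cluster.

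**Figure D1:**
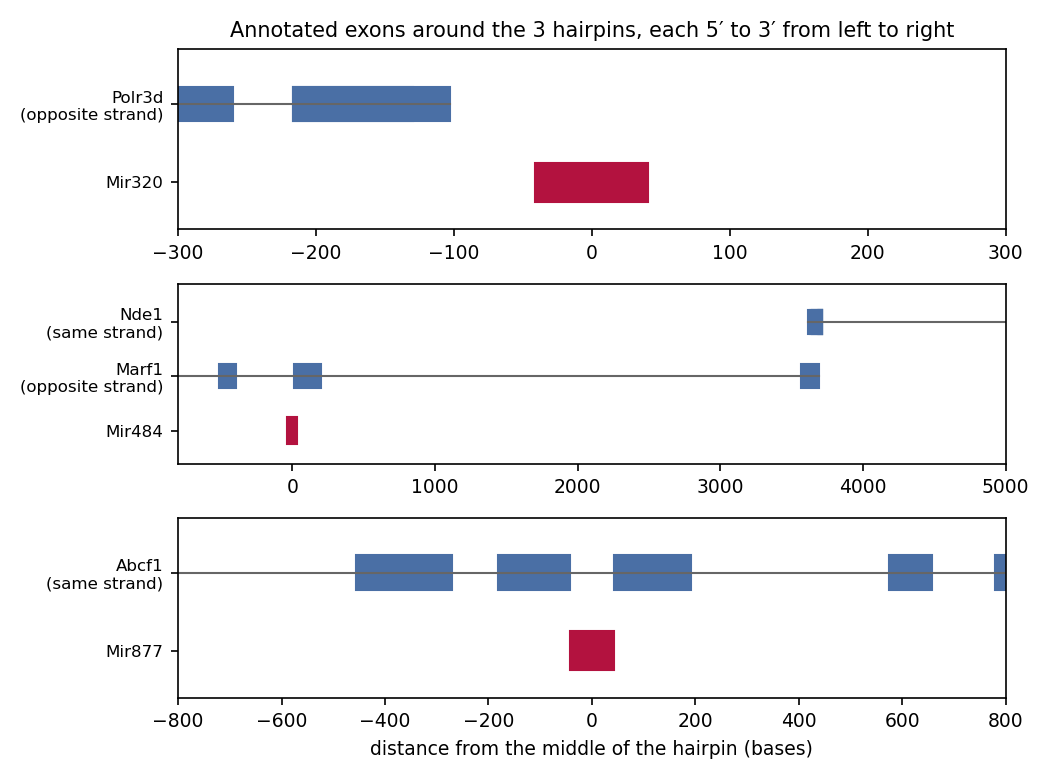
Annotated exons (blue, all transcripts together) and hairpins (red) against the distance in bases from the middle of the Mir320, Mir484 and Mir877 hairpins, each drawn 5′ to 3′ from left to right. The Polr3d start lies 63 bases from the Mir320 hairpin, a Marf1 exon overlaps the 3′ end of Mir484, and the Mir877 hairpin fills the gap between neighbouring Abcf1 exons.

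Of 13210462 reads in replicate 1, 4930853 were counted on the strand of a miRNA gene, and replicate 2 held 5229819 of 14363882. Levels are counts scaled to 1000000 assigned counts (CPM), where 1 count is 0.203 CPM in replicate 1 and 0.191 CPM in replicate 2. Reads placed at several loci, 41.6% and 37.4% of all reads in replicates 1 and 2, are in no gene's count. No member has a stretch of 20 bases in common with any other listed miRNA locus, and each had 0 counts on the opposite strand in both libraries. Each mature miRNA is read whole and the median annotated length is 22 bases, so levels were not divided by length. The heart muscle miRNAs Mir499, Mir208a and Mir208b, which lie in myosin genes, averaged 2846, 2462 and 191 CPM.

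All 3 members were detected, meaning at least 10 counts in both libraries, as were 356 (16.2%) of the listed genes. Mir320 was the highest of them and Mir877 lowest in both libraries. Mir320 had 17884 counts in replicate 1 and 23212 in replicate 2, or 3627 and 4438 CPM, a mean of 4033 ± 574 CPM (SD, n = 2). It was the 31st gene by mean level, above Mir499, which had 2933 and 2758 CPM. Mir320 took 0.363% of assigned counts in replicate 1, with an exact (Clopper-Pearson) 95% interval of 0.357 to 0.368%. In replicate 2 its share was 0.444%, with an interval of 0.438 to 0.450%. These intervals, like all below, cover the counting error of reads only. No molecular identifiers are mentioned in the sources, so reads copied from the same molecule could not be told apart.

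Mir484 had 5817 and 6510 counts, or 1180 and 1245 CPM, a mean of 1212 ± 46.0 CPM (SD, n = 2), and was the 69th gene. Its level exceeded that of 80.6% of detected genes. Mir877 had 145 and 218 counts, or 29.4 and 41.7 CPM, a mean of 35.6 ± 8.68 CPM (SD, n = 2), and was the 203rd gene. It lay below the median of detected genes, 60.3 CPM. The lowest Mir320 level was above the highest Mir484 level, and the lowest Mir484 level above the highest Mir877 level, so neighbours in this order differed by more than the spread between libraries. Together the 3 genes held 0.484% of assigned counts in replicate 1 and 0.572% in replicate 2, of which Mir320 made up 75.0% and 77.5%.

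**Figure D2:**
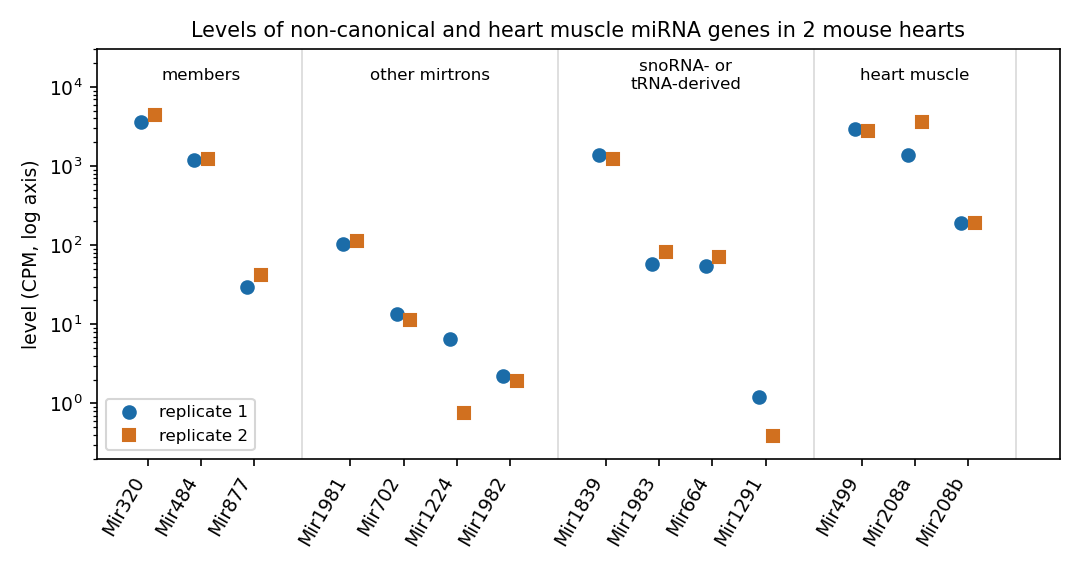
Level in CPM (log axis) of Mir320, Mir484 and Mir877, of 4 other mirtrons, of 4 miRNAs cut from snoRNAs or a tRNA, and of 3 heart muscle miRNAs, with a circle for replicate 1 and a square for replicate 2. Mir320 lies at the height of Mir499 or above it, and Mir877 lies below Mir1981.

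The ratios between members do not depend on the scaling. In replicate 1 there were 3.07 Mir320 counts for each Mir484 count (exact 95% interval 2.99 to 3.17), and in replicate 2 there were 3.57 (3.47 to 3.67). These intervals do not overlap, and the odds differed between the libraries (0.862 in replicate 1 relative to replicate 2, Fisher's exact test, two-sided, p = 6.76e-13, adjusted over 3 pairs 2.03e-12). For each Mir877 count there were 40.1 Mir484 counts in replicate 1 (34.0 to 47.6) and 29.9 in replicate 2 (26.1 to 34.3), and the odds were 1.34 in replicate 1 relative to replicate 2 (Fisher's exact test, two-sided, adjusted p = 0.00973). For each Mir877 count there were 123 Mir320 counts in replicate 1 (105 to 146) and 107 in replicate 2 (93.2 to 122), and here the intervals overlap and the test was not passed (Fisher's exact test, p = 0.184). Adapter ligation favours some small RNAs over others, and its part in these ratios was not tested.

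**Figure D3:**
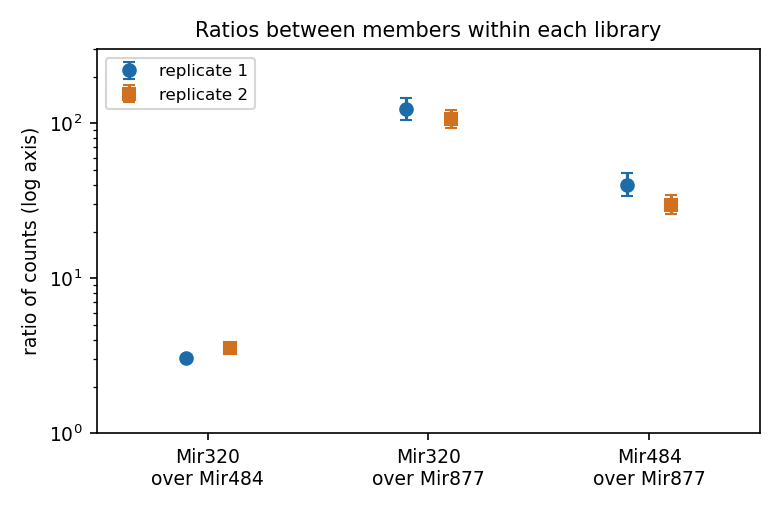
Ratio of counts (log axis) for each pair of members within replicate 1 (circles) and replicate 2 (squares), with exact 95% intervals. The ratio of Mir320 to Mir484 was 3.07 in replicate 1 and 3.57 in replicate 2, while the intervals of Mir320 over Mir877 overlap.

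Between the 2 libraries, all 3 members were lower in replicate 1 than in replicate 2. Mir320 was at 0.817 of its replicate 2 level (exact 95% interval 0.801 to 0.833), a log2 ratio of -0.29 (exact binomial test, two-sided, Benjamini-Hochberg adjusted p = 2.36e-91). Mir877 was at 0.706 (0.568 to 0.874), a log2 ratio of -0.50 (exact binomial test, adjusted p = 0.00206). Mir484 was at 0.948 (0.915 to 0.982), a log2 ratio of -0.08 (exact binomial test, adjusted p = 0.00529). With TMM scaling the Mir484 log2 ratio was -0.0325 and the test was not passed (exact binomial test, adjusted p = 0.288), and with all reads as the total it was -0.0416 (adjusted p = 0.156). The test compares the reads of 2 libraries, not conditions, and with 1 library per animal it has no replicate check.

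Differences of this size were common among detected genes. By the same exact test 63.5% of the 356 detected genes differed in either direction and 32.9% were lower in replicate 1, and 3 of 3 members had both. At more than 1.5-fold besides the test, 35.7% of detected genes were called, and 0 of the 3 members. The SD of the log2 ratio over detected genes was 0.86 and the median absolute log2 ratio 0.45. Of the detected genes 8.71% had a smaller absolute log2 ratio than Mir484, 36.5% a smaller one than Mir320 and 55.9% a smaller one than Mir877. The median log2 ratio was -0.29 over the members and -0.02 over all detected genes.

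**Figure D4:**
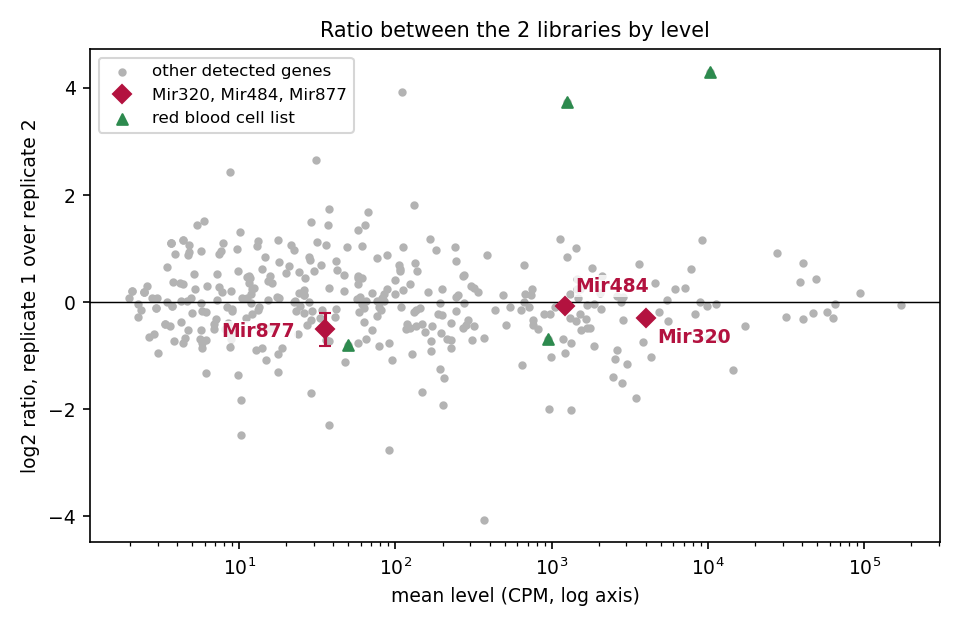
Log2 ratio of replicate 1 over replicate 2 against the mean level in CPM (log axis) for the 356 detected genes, with the members as red diamonds with exact 95% intervals and the red blood cell list as green triangles. The members lie at -0.29, -0.08 and -0.50, inside the spread of genes of like level, while Mir451a and Mir144 lie at 4.30 and 3.73.

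Markers of several cell types also differed between the libraries, which may differ by animal or by preparation. In the red blood cell list the summed level was 22579 CPM in replicate 1 and 2398 CPM in replicate 2, with Mir451a and Mir144 higher in replicate 1, at log2 ratios of 4.30 and 3.73, and Mir486 and Mir3107 lower, at -0.68 and -0.79. Mir3107 lies within Mir486 on the opposite strand, so they are not separate loci. The leukocyte list summed to 5437 and 6444 CPM, the heart muscle list to 4486 and 6512 CPM, the endothelial list to 56393 and 69423 CPM, and the smooth muscle list to 30025 and 36447 CPM, in replicates 1 and 2. The endothelial sum is nearly all Mir126a, since Mir126b had 3 counts in each library and was not detected. Single markers did not all follow these sums. In the heart muscle list Mir208a was lower in replicate 1 (log2 ratio -1.39), Mir499 was higher (0.09, exact binomial test, adjusted p = 4.23e-07) and Mir208b was at -0.0085 without a call, which is also the list's median. In the leukocyte list 3 genes were lower in replicate 1, Mir142 was higher (0.89) and Mir155, at 0.0081, was not called. None of the 16 markers was at 0 in both libraries. The part of cell content in the members' ratios was not tested, and in bulk tissue fewer cells of a type and less RNA per cell cannot be told apart.

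Mir320, Mir484 and several canonical miRNAs are often used as references in quantitative PCR. Of 10 canonical reference miRNAs listed, 9 were detected, and all 9 differed between the libraries by the exact test, 6 higher and 3 lower in replicate 1, with 5 beyond 1.5-fold. Over all detected genes the shares were 63.5% called and 35.7% called beyond 1.5-fold, and whether the references vary more than other genes was not tested. Mir191 had the smallest log2 ratio of them, -0.03, with 11138 CPM in replicate 1 and 11393 CPM in replicate 2. Of these 9 genes, 1 had a smaller absolute log2 ratio than Mir484, 3 a smaller one than Mir320 and 4 a smaller one than Mir877. Next after Mir191 came Mir423, at -0.13, then Mir361 at 0.25 and Mir186 at 0.41. Mir93 (0.62), Mir25 (0.70), Mir16-2 (0.78) and Mir16-1 (1.02) were higher in replicate 1, and Mir103-2 was lower (-1.82). Mir16-1, Mir16-2, Mir103-1 and Mir103-2 have 20 bases in common with another miRNA gene, so reads that fit more than 1 of these loci are in none of their counts. Mir103-1, the member not detected, had 0 counts in replicate 1 and 14 in replicate 2. With 2 libraries this order is a description of these libraries.

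Other mirtrons were scarcer than the capped members. Of 6 listed, Mir1225 and Mir1226 were not matched to a listed gene, and Mir1981, Mir702 and Mir1982 were detected. Mir1981 had 517 and 585 counts, or 105 and 112 CPM, in replicates 1 and 2, above Mir877 in both. Mir702 had 67 and 59 counts and Mir1982 had 11 and 10. None of these 3 passed the exact test between libraries (adjusted p = 0.375, 0.417 and 0.899), while 63.5% of all detected genes did. Their median log2 ratio was 0.22, against -0.02 over all detected genes. The ratio of replicate 1 over replicate 2 had an exact interval of 0.831 to 1.06 for Mir1981. On fewer counts it was wider, 0.836 to 1.74 for Mir702 and 0.450 to 3.06 for Mir1982. The missing calls of Mir702 and Mir1982 therefore do not show that these genes were steady. Mir1224 had 32 counts in replicate 1 and 4 in replicate 2, below the minimum in replicate 2, and was not tested.

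Annotation alone gives a wider set of possible mirtrons, and how these are made was not tested. Of all listed genes, 22 have a hairpin whose ends lie within 2 bases of both ends of 1 annotated intron on the same strand, and Mir877 is among them, while Mir702 is not. In this set Mir877 was number 3 by mean level, after Mir3102 in an intron of Arhgef17 and Mir1981 in an intron of Marc2. Mir3102 had 711 and 1026 counts, or 144 and 196 CPM, in replicates 1 and 2, and was lower in replicate 1 with a ratio of 0.735 (exact 95% interval 0.667 to 0.810, exact binomial test, adjusted p = 5.97e-10). The levels of Mir3102, Mir1981 and Mir877 did not overlap between these genes. The next gene, Mir7080 in an intron of Cpne7, had 39 and 15 counts and was higher in replicate 1 (ratio 2.76, 1.49 to 5.39, exact binomial test, adjusted p = 0.00107). Of the 22 genes, 6 (27.3%) were detected, against 16.2% of all listed genes, and 7 were at 0 counts in both libraries. A count of 0 allows a level of at most 0.608 CPM in replicate 1 and 0.574 CPM in replicate 2, by counting error alone.

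**Figure D5:**
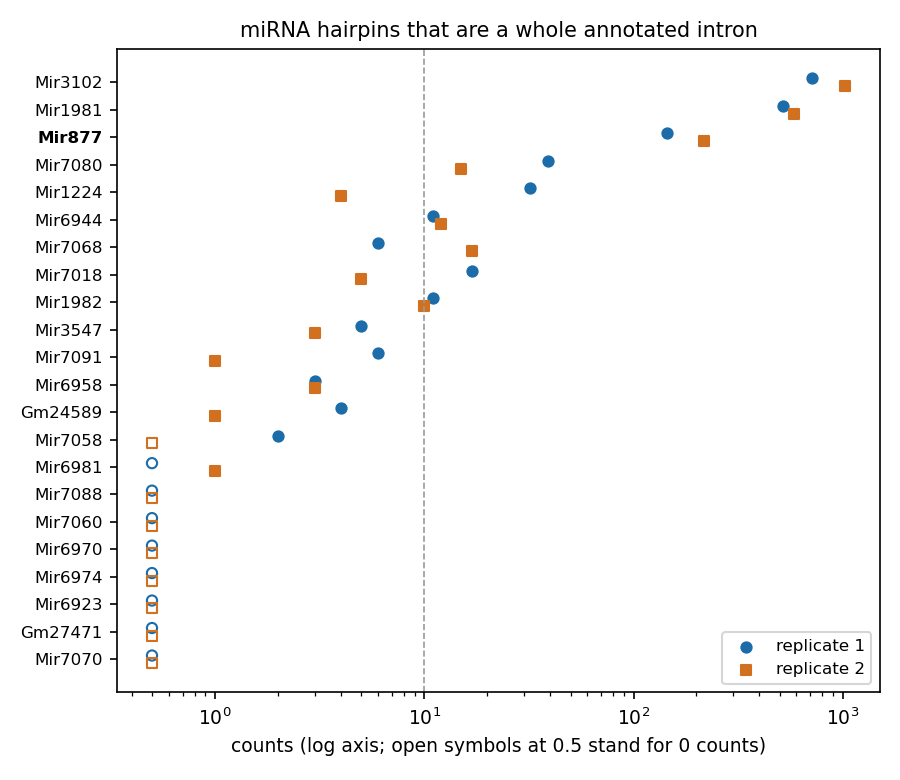
Counts (log axis) of the 22 miRNA genes whose hairpin is a whole annotated intron, in replicate 1 (circles) and replicate 2 (squares), ordered by mean level, with open symbols for 0 counts and a dashed line at the minimum of 10. Mir877 is number 3 with 145 and 218 counts, and 7 genes have open symbols in both libraries.

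Of the miRNAs cut from other small RNAs, Mir1839 was near Mir484 in level. Mir1839, known to come from a snoRNA, had 6771 and 6475 counts, or 1373 and 1238 CPM, in replicates 1 and 2, and was higher in replicate 1 (log2 ratio 0.15, exact binomial test, adjusted p = 6.83e-09). Its level was above that of Mir484 in replicate 1 and just below it in replicate 2. Mir1983, from a tRNA, had 57.8 and 82.8 CPM and Mir664, from a snoRNA, 55.2 and 71.1 CPM, and both were lower in replicate 1, at log2 ratios of -0.52 and -0.37 (exact binomial test, adjusted p = 4.75e-06 and 0.00256). Mir1291 had 6 and 2 counts and was not detected. The median log2 ratio was -0.37 over the 3 detected genes of the list and -0.11 over all 4, with Mir1291 at 1.46 on few counts.

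The genes most like each member were taken as the 3 with the smallest distance over log2 CPM in the 2 libraries. Nearest to Mir320 were Mir15b (distance 0.36), of the miR-15/16 family, Mir744 (0.41) and Mir27b (0.52). Mir744 had 4566 and 5215 CPM in replicates 1 and 2, a log2 ratio of -0.19, while Mir15b and Mir27b differed more between the libraries, at -0.74 and -1.02. Nearest to Mir484 were Mir335 (0.22), in the imprinted Mest locus, Mir1839 (0.22) and Mir181b-2 (0.28), with log2 ratios of -0.30, 0.15 and -0.08. Nearest to Mir877 were Mir1198 (0.14), Mir5099 (0.18) and Mir378c (0.19), with log2 ratios of -0.70, -0.72 and -0.30. Mir27b, Mir181b-2 and Mir378c have 20 bases in common with another miRNA locus, which no member has.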

How the data were processed

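Small RNA below 30 nucleotides from 2 mouse hearts was sequenced, per the labels. Per miRNA gene, the deposited files give raw read counts in 3 columns, unstranded, gene strand and opposite strand, and the authors' accompanying text names mm10 and GENCODE M21. Which aligner and counter were used is not given in the sources used here. The gene-strand counts were used, and the 4 entries of unassigned reads were left out of totals. Log2 ratios use a pseudocount of 0.5 counts. With 1 group there is no contrast for edgeR's quasi-likelihood test, so each gene was compared by an exact conditional binomial test against the libraries' shares of the total (scipy 1.17.1), adjusted by Benjamini-Hochberg over 356 detected genes, and called at 0.05. TMM factors came from edgeR 4.0.16, size factors from DESeq2 1.42.0, both on detected genes, and folds from RNAfold 2.7.2. The test was tried on simulated counts that held counting error only, the error it assumes. Such a trial cannot show how the test behaves with spread between animals or preparations. Introns came from GENCODE M21 and sequences from RefSeq. Named genes are the members, their 3 nearest genes by level, detected genes of the fixed lists, and cell type markers. Mir1224, Mir1291, Mir103-1, Mir3102, Mir7080, Mir6970 and Gm27471 were named after their values were seen. Members and lists were chosen with earlier results of these data known.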

Additional observations from a re-analysis of the deposited data

How the results depend on the processing

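Of 58 alternative values, 49 were scored as the same, 2 lost the call, 7 moved and 0 reversed. Ratios between libraries were the same if they kept direction and side of the threshold, and levels, pair ratios and medians if within the spread. Counts of members were the same if they changed up to 1.5-fold, as when called members fell from 3 to 2 with TMM. Part of the 49 was fixed in advance, so the tally does not measure robustness. With 2 libraries, leaving out 1 always stays within the SD. Each member's unstranded counts equal its gene-strand counts, and the pseudocount does not enter the test. Set against all reads, the mean levels of Mir320, Mir484 and Mir877 were 1485, 447 and 13.1 per 1000000 reads, and with unstranded counts, whose total is smaller because reads of overlapping genes are ambiguous, they were 5553, 1669 and 48.95 CPM. Leaving out either library gave 3627 to 4438, 1180 to 1245 and 29.4 to 41.7 CPM. The Mir484 ratio lost its call with TMM (log2 ratio -0.0325) and with all reads as the total (-0.0416), and kept it with DESeq2 size factors (adjusted p = 0.0494, exact binomial test). Over its alternatives the adjusted p of Mir484 ran from 0.00273 to 0.288. Beyond 1.5-fold, 0 members were called. At a minimum of 1000 counts, 2 members were detected. No paired analysis was possible because both libraries belong to 1 group. The 145 and 218 counts of Mir877 are the fewest of the members and give its ratio the widest interval, 0.568 to 0.874.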
